A study of Mus musculus with 2 samples.

Results

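The regions described here are stretches of open chromatin between genes that were called in the cartilage of both ends of the embryonic mouse femur. Peaks of the proximal and the distal list that overlapped by at least 1 bp were merged, which gave 32388 regions. Of these, 3787 (11.7%) held a peak of each end, overlapped no gene body of the GENCODE mouse release 21 annotation, and had their nearest edge more than 3 kb and at most 100 kb from the nearest transcription start site of a protein-coding gene. Beside them, 73.0% of all merged regions held a peak of each end. The members were chosen by the presence of a peak in both lists and by position, so that their number and their sharing between the ends are a description. Intergenic regions at these distances numbered 5876, of which 3787 were shared, 1133 were called in the proximal list only and 956 in the distal list only.

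The tissue came from E15.5 embryos of FVB mice (strain FVBNJ in the labels), without any treatment or genotype difference. By the paper's account, the dissected ends held every chondrocyte zone and also the perichondrium over them. Proximal and distal cartilaginous ends of right and left femurs were pooled by litter, with 8 animals on average, dissociated with collagenase, and used at 50000 cells per ATAC-seq library, an assay in which a transposase cuts accessible DNA. Each end had 2 biological replicates, which the authors combined into 1 list of reproducible peaks. There is therefore no replicate error for any value given here, peak heights are not in the lists, and the intervals in brackets are 95% intervals for counting error only.

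Much of the DNA that regulates development is noncoding and lies between genes or in introns. Enhancers, short stretches where transcription factors displace nucleosomes, act on start sites over long distances, and the nearest gene is often but not always their target. In growth plate cartilage, Sox9 with Sox5 and Sox6 drives matrix genes, Runx2 and Runx3 drive hypertrophy, and factors of the AP-1 family (Fos and Jun proteins) bind open sites in many cell types. Genes of short RNAs made by RNA polymerase III, such as transfer RNAs, also lie in nucleosome-poor DNA and often stand in clusters between protein-coding genes.

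The windows printed next come from the genes with most regions and from the leading genes of the cartilage lists. Apart from the windows with RNA genes in capitals, they were chosen by their words. At each gene, the region with most AP-1, SOX and RUNX words in its central 200 bp was taken, the widest at ties. The words in these windows therefore do not stand for the other regions of the same genes. All are the plus strand of GRCm38 (the mm10 build), written 5′ to 3′. In the first window, from chr6:47654878-47655137, the capitals mark the 4.5S RNA gene that RefSeq places on the minus strand, inside a region upstream of Ezh2.
Ezh2 region with the 4.5S RNA gene: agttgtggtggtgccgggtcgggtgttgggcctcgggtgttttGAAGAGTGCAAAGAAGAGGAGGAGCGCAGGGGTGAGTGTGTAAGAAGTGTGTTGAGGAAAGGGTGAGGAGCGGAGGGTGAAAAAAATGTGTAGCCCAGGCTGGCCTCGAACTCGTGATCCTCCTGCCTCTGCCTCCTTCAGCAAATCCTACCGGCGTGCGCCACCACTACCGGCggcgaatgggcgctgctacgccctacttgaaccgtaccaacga

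The next pair, from chr6:47676700-47676899 and chr6:47772080-47772279, are central windows of other regions on either side of the same array, and they share an identical run of 151 bases. The capitals mark a RUNX word.
Ezh2 region: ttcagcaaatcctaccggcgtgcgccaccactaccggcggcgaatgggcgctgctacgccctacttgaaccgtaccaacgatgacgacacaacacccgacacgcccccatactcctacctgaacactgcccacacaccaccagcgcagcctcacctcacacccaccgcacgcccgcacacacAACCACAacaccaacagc
Pdia4 region: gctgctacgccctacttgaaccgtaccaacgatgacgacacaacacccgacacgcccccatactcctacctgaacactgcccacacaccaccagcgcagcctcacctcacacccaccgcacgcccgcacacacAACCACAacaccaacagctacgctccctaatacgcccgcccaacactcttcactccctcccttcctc

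The window at chr13:21200156-21200355 lies in the widest region of Trim27, and the capitals mark a tRNA-Leu gene on the plus strand.
Trim27 region: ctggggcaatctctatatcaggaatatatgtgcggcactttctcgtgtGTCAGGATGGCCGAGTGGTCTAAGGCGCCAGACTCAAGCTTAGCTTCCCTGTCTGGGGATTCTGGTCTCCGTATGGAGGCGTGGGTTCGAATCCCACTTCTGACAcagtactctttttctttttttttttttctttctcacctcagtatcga

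The remaining windows are the central 200 bp of regions nearest to Azin1 (chr15:38470626-38470825), Nt5e (chr9:88266488-88266687), Hapln1 (chr13:89521592-89521791), Ptch1 (chr13:63657328-63657527) and Foxa2 (chr2:148068755-148068954). The capitals mark AP-1 words (TGAGTCA or its complement TGACTCA), RUNX words (TGTGGTT or AACCACA) and SOX words (ACAATG or CATTGT).
Azin1 region: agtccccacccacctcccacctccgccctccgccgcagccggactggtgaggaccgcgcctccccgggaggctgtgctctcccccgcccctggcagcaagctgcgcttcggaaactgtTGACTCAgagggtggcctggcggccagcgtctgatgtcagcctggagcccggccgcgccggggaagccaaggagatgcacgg
Nt5e region: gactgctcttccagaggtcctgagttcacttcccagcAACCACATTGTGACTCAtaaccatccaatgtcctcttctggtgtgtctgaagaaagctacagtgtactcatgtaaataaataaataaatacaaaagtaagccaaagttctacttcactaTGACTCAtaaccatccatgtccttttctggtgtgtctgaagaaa
Hapln1 region: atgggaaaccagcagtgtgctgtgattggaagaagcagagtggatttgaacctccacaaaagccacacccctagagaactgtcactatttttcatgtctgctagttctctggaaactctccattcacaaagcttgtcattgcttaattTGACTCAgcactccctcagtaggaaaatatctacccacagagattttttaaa
Ptch1 region: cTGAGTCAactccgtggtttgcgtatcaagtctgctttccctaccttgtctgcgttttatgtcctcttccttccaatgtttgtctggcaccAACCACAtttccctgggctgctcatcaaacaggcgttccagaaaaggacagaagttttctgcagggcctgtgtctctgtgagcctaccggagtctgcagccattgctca
Foxa2 region: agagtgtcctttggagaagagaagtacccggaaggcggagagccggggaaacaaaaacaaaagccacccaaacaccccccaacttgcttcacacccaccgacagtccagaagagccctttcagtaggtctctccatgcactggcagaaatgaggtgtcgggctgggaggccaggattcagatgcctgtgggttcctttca

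The Azin1 and the Hapln1 window each held 1 AP-1 word. The Nt5e window held 2 AP-1 words, with a RUNX and a SOX word overlapping directly before the first, and 90.5% of it was repeat-masked. The Ptch1 window held an AP-1 and a RUNX word, and the Foxa2 window held none of the words.

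The chondrocyte label was compared with peaks at start sites of marker genes. Of 8 chondrocyte marker genes, 7 had a shared peak within 1 kb of a start site, and Comp, a cartilage matrix protein, had a distal peak only. The same count was 1 of 7 osteoblast, 1 of 8 skeletal muscle, 2 of 8 endothelial, 1 of 7 blood cell, 4 of 8 neuron and 1 of 8 keratinocyte markers, beside 54.97% of all 20807 protein-coding genes. Chondrocyte markers had the highest share, and the neuron markers the next.

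The genes nearest to most regions were not cartilage genes. Ezh2, the histone methyltransferase of Polycomb, and Pdia4, a protein disulfide isomerase of the endoplasmic reticulum, were each nearest to 9 regions, and Trim27, a ubiquitin ligase, to 7. The 9 Ezh2 regions lay upstream of it at 55250 to 89690 bp and the 9 Pdia4 regions lay downstream of that gene at 34654 to 72454 bp, on facing sides of the same interval of chromosome 6. Region starts followed each other every 4181 to 4373 bp at Ezh2 (median 4319 bp) and every 4215 to 6102 bp at Pdia4 (median 4447.5 bp).

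This interval is an array of 4.5S RNA genes, short RNAs of rodents made by RNA polymerase III. RefSeq annotates 1 such gene, of 174 bp, at chr6:47654921-47655094, inside an Ezh2 region. An ungapped copy of it with at least 70% identity lay in 15 of the 18 regions of Ezh2 and Pdia4, and the identity was at least 90% in 12 of them. Among all other members none held a copy at that level, and the highest identity was 66.1%. By RefSeq, 9 of the 18 regions lay inside a gene. In 8 of the 9 regions of each gene, over 50% of the 31-base words occurred more than once in the assembly, and none of the 18 held an AP-1 word in its central 200 bp. The assembly also has a gap of 50 kb without known sequence between the Ezh2 and the Pdia4 regions. The part of repeated sequence in these peak calls was not tested. Without multi-copy regions, a choice made after seeing the data, the most regions at 1 gene were 7.

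All 7 Trim27 regions held tRNA genes, 10 in total, of which 4 were for leucine, 2 for methionine, 2 for alanine, 1 for glutamine and 1 for arginine. Upstream of Trim27 they lay at 6428, 9044 and 11559 bp, and downstream at 9933, 25459, 32317 and 43826 bp. Their merged widths ran from 578 to 1079 bp, with 0 AP-1 words in the central 200 bp. Multi-copy 31-base words made up 2.097 to 19.1%, against over 50% in most regions of the 4.5S array.

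Transfer RNA genes were found among the members well beyond Trim27. Of 386 tRNA genes that RefSeq lists on the autosomes, 167 (43.3%) lay in a shared region and 84 of them in a member, whereas 12 lay in proximal-only and 1 in distal-only regions. A tRNA gene was present in 62 members (1.64%), and in 0.150% of shared intronic regions more than 3 kb from start sites, 0.0515% of shared intergenic regions over 100 kb away and 0.252% of shared promoter regions. At the same intergenic distances it was present in 8 proximal-only regions (0.706%) and in 1 distal-only region (0.105%). The GENCODE file holds 0 tRNA genes on the autosomes, so tRNA loci counted as intergenic. The 62 members had a median width of 933.5 bp and 17 held at least 2 tRNA genes. Genes for leucine (14 of 25) and proline (11 of 15) were most frequent in members, and tRNA-Cys genes, 57 on the autosomes, had none. Shf had 3 regions with tRNA-His genes among its 4 regions, and Gpx5, Abt1, Zfp213 and Olfr1423 also had 3 of 4. None of the 62 held an AP-1 word in its central 200 bp, compared with 29.7% of the other 3725 members.

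The other genes with most regions had neither feature. Azin1, which regulates polyamine synthesis, had 6 regions, 5 of them downstream at 20401 to 87557 bp and 1 upstream at 24453 bp. Nt5e, a surface enzyme that releases adenosine, had 6, all upstream at 30114 to 85128 bp, and 3 of them held AP-1 words in the central 200 bp. Trib1, a pseudokinase, had 6 downstream at 16737 to 97265 bp. Col6a2, a chain of the pericellular collagen VI, had 5 upstream within 45068 bp, and 3 held AP-1 words in the central 200 bp. Relative to territory, Col6a2 was highest among these 7 genes (11.2 regions per 100 kb of intergenic bases closest to it). Isg20, an exonuclease induced by interferon, had 5 downstream at 10917 to 56641 bp, on the side that faces Acan. Acan, the aggrecan core protein, had 1 region of its own, 62419 bp upstream, so that the nearest gene divided this interval between the genes. Chd2, a chromatin remodeller, and Zfp438, a zinc finger protein, had 5 upstream each. A total of 26 genes had 5 or more regions, and those tied at 5 were ranked by regions per 100 kb. Others with 5 included Sulf1, a heparan sulfate sulfatase, the transcription factor Klf6, the remodeller Chd7 and Pkdcc, a secreted kinase needed for long bone growth. Of the Pkdcc regions, 1 was multi-copy.

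**Figure D1:**
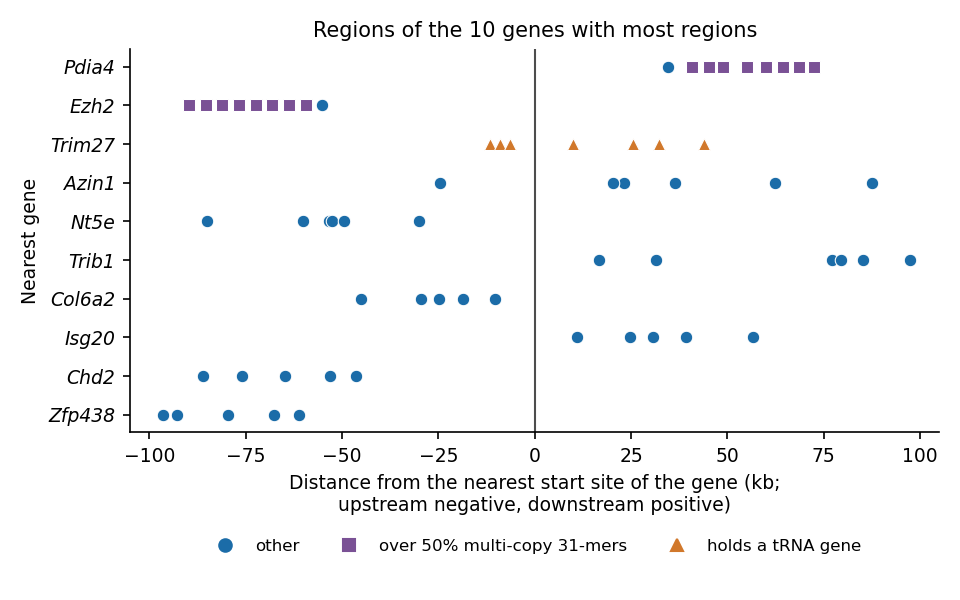
Position of every shared intergenic region (points) relative to the nearest start site of the 10 genes with most regions, in kb, upstream to the left and downstream to the right of 0. Squares mark regions with over 50% multi-copy 31-base words, which are 8 of the 9 regions at each of Pdia4 and Ezh2. Spacing is nearly even at Ezh2 and less so at Pdia4. Triangles mark regions with a tRNA gene, which make up all 7 regions of Trim27.

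Across the genome the 3787 regions were nearest to 2750 protein-coding genes, 13.2% of all. Of these genes 2042 had 1 region, 492 had 2, 142 had 3, 48 had 4, 20 had 5 and 6 had more. The median region lay 60485 bp from the next member, and 360 (9.51%) had one within 5 kb. By this rule a region has 1 nearest gene, but 2447 regions (64.6%) had another protein-coding gene within 100 kb, and for 1574 (41.6%) it was no farther than 2 times the distance of the nearest.

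Nearest genes often had an open start site as well, in a measure the rule did not use. Of genes with no member, 53.4% (52.7 to 54.1) had a shared peak within 1 kb of a start site. The share was 62.9% (60.8 to 64.9) with 1 region, 70.3% (66.1 to 74.2) with 2, 71.6% (64.8 to 77.5) with 3 or 4, and 25 of 26 genes (96.2%, 81.1 to 99.3) with 5 or more. The exception was Kcna5, a potassium channel gene with a distal peak only. Genes with more regions had more intergenic territory, with medians of 8.23 kb at 0, 47.6 kb at 1 and 96.7 kb at 5 or more regions. Within territories of 50 to 100 kb the shares were 55.1% at 0, 68.8% at 1, 70.9% at 2 and 68.5% at 3 or 4 regions. Peaks of 1 end only were rare at start sites of nearest genes (1.60% proximal, 3.35% distal), close to all genes (1.34% and 2.73%). A shared intronic region more than 3 kb from start sites was present in 9.15% of genes with no member, 20.03% with 1 and 28.4% with 3 or 4, but in 2 of 26 genes with 5 or more.

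**Figure D2:**
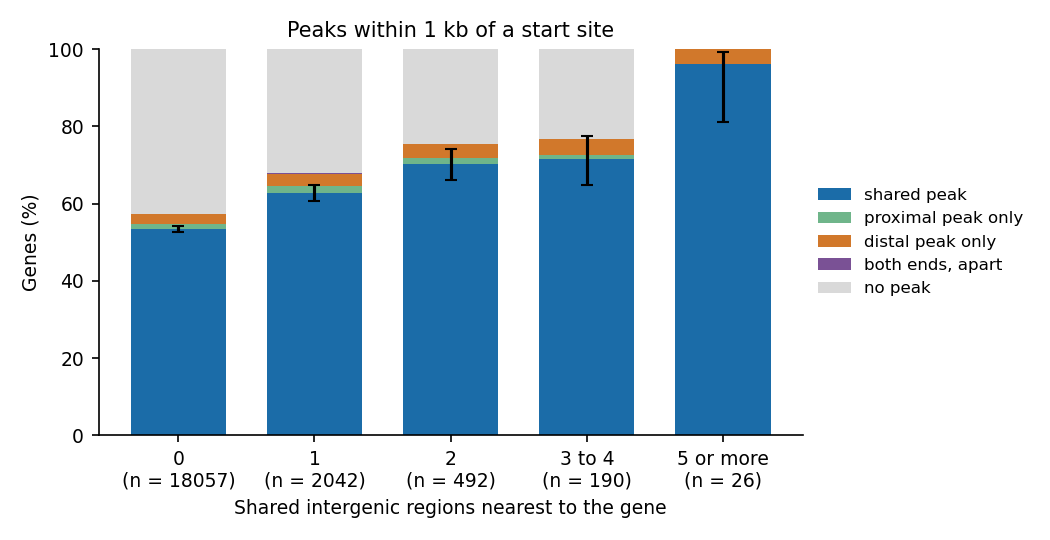
Share of protein-coding genes (%) with a shared, proximal-only or distal-only peak, peaks of both ends that lie apart, or no peak within 1 kb of a start site, by the number of shared intergenic regions nearest to the gene; black bars are 95% Wilson intervals of the shared share. The shared share rises from 53.4% of 18057 genes without a region to 96.2% of 26 genes with 5 or more.

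Among cartilage matrix genes, 9 of 24 (37.5%) were nearest to at least 1 region, beside 13.2% of all protein-coding genes. They had 15 regions or 17.9 per Mb of territory (10.0 to 29.5), compared with 6.84 per Mb (6.62 to 7.06) over all genes. Endothelial markers had nearly the same density (16.9 per Mb, 6.78 to 34.8), and the intervals of both lists overlap. Hapln1, the link protein that ties aggrecan to hyaluronan, had 4 regions, all upstream, at 17754, 75395, 85601 and 94560 bp. Col11a1, a fibrillar cartilage collagen chain, had 3 upstream at 30314, 70019 and 79603 bp. Prg4, the lubricin of joint surfaces, had 2 at 6207 to 20603 bp upstream although no peak lay at its start site. Col2a1, the main cartilage collagen, had 1 at 9434 bp upstream, Comp had 1 at 6527 bp and Epyc and Ucma had 1 each. Col9a1, Matn3 and Xylt1, which had shared start site peaks and shared intronic regions, had 0 regions by this rule. The regions of Hapln1 were 604 to 729 bp wide and 2 of them held an AP-1 word in the central 200 bp. None of the Col11a1 regions held one in that window.

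Of chondrocyte transcription factors 10 of 22 (45.5%) had regions, beside 13.2% of all protein-coding genes. The regions were 16 in all or 11.5 per Mb (6.60 to 18.8), an interval that includes the 6.84 per Mb of all genes. The median territory of this list was 69.7 kb, beside 11.2 kb over all genes. Foxa2, a forkhead factor of hypertrophic chondrocytes, had 3 upstream at 21213, 31317 and 35328 bp and no start site peak. Foxc1, Gli3, Nfatc1 and Zeb2 had 2 each, and Sox5 had 1 at 71398 bp that was a multi-copy sequence. Sox9 had 0 in a territory of 80.9 kb, and Runx3 had 0 in 127 kb.

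Growth plate signalling genes had a density near that of all genes, with 14 of 40 genes, 19 regions and 7.19 per Mb (4.33 to 11.2). Bmp2, a bone morphogenetic protein, had 3, at 52783 and 67748 bp upstream and 66775 bp downstream. Ptch1, the Hedgehog receptor, had 3 upstream at 68979, 83467 and 98749 bp, of which 2 held AP-1 words in the central 200 bp. Ihh, the Hedgehog ligand of prehypertrophic chondrocytes, had 1 at 12821 bp upstream without a start site peak, and Pthlh, which keeps chondrocytes proliferating, had 1 at 4212 bp. Limb patterning and joint factors had regions at 15 of 28 genes (53.6%) but in long territories, with 7.24 per Mb (4.36 to 11.3). Erg, an ETS factor of joint cartilage that is also an endothelial gene, had 3 upstream at 25438, 33251 and 56290 bp. In the central 200 bp, 2 of these held AP-1 words. Genes of the AP-1 and ATF family had 6 regions at 4 of 13 genes (30.8%, beside the same 13.2% of all protein-coding genes). Their density was 15.1 per Mb (5.54 to 32.8), an interval that includes the 6.84 of all genes. Of these regions, 2 were nearest to Fos, at 17864 bp upstream and 10711 bp downstream.

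Lists of other cell types also had members. Spp1, the osteopontin gene, had 3 upstream at 26842, 51167 and 53852 bp, and it was the only one of 7 osteoblast markers with any. Cdh5, the cadherin of endothelial junctions, had 3 at 50178, 72606 and 77973 bp upstream and no start site peak. Snap25, a synaptic protein, had 3, at 34140 and 64327 bp upstream and 85505 bp downstream, each with an AP-1 word in the central 200 bp. Of endothelial genes 3 of 8 (37.5%, the same share as for cartilage matrix genes) had a region, with 7 regions in all and Erg in both lists, beside 13.2% of all protein-coding genes. Osteoblast markers had 13.1 regions per Mb (2.70 to 38.3). For blood cell markers it was 1 of 7 genes and 7.21 per Mb (0.182 to 40.1), and for neuron markers 2 of 8 and 7.01 per Mb (1.91 to 17.9). Of 8 skeletal muscle and 8 keratinocyte markers 0 had a region, which allowed up to 14.2 per Mb in each list. The lists are small, their intervals overlap, and whether other cells in the cartilage contributed was not tested.

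The regions were spread over both sides of genes much as the available sequence was. They lay upstream of the nearest gene in 2315 cases (61.1%, 59.6 to 62.7) and downstream in 1472 (38.9%), while 62.6% of the eligible bases, those outside gene bodies within the same distances, lay upstream. Density was 6.68 per Mb (6.41 to 6.96) upstream and 7.10 per Mb (6.75 to 7.48) downstream. Proximal-only regions lay upstream in 59.0% (56.1 to 61.8) and distal-only regions in 60.9% (57.7 to 63.9), and shared regions over 100 kb away in 53.8%. The median distance to the start site was 27481 bp, with 25305 bp upstream and 30817.5 bp downstream.

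Density changed little with distance. It was 6.51 per Mb (6.02 to 7.02) at 3 to 10 kb, 7.23 (6.74 to 7.76) at 10 to 20 kb, 7.42 (6.82 to 8.05) at 20 to 30 kb and 6.25 (5.67 to 6.87) at 75 to 100 kb. The limits cut through a continuous range, as the nearest members lay at 3008 bp (Tmem125), 3027 bp (Slc11a1) and 3053 bp (Rp1) and the regions just outside at 2998 bp (Nfatc2), 2959 bp (Xkr5) and 2938 bp (Them7). At the far end the last members lay at 99890 bp (Piezo2), 99865 bp (Chic2) and 99808 bp (Fut10), and the next regions at 100374 bp (1810010D01Rik), 100413 bp (Slc27a6) and 100483 bp (Sesn3). By chromosome, density ran from 5.20 per Mb on chromosome 7 to 8.45 on chromosome 1.

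**Figure D3:**
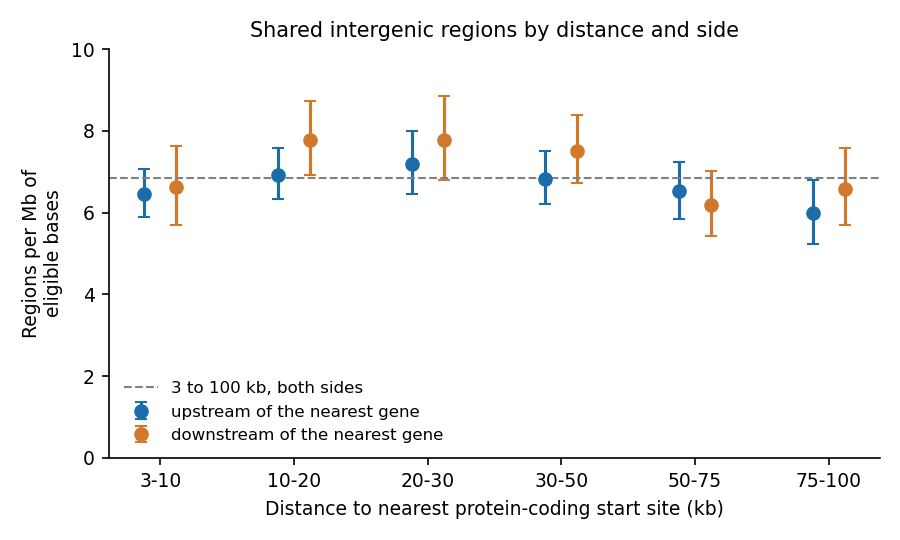
Shared intergenic regions per Mb of eligible bases (y axis) in 6 bins of distance to the nearest protein-coding start site (kb, x axis), upstream (blue) and downstream (orange), with 95% exact Poisson intervals, which cover counting error only; the dashed line is the value over 3 to 100 kb, 6.84 per Mb. Both sides stay near that line in each bin.

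Proximal and distal peaks of the same region had nearly the same position and width. Of 3787 regions, 3757 held 1 peak of each end and 30 held more, with 2 distal peaks in 22 and 2 proximal peaks in 8. The merged regions had a median width of 668 bp (658 to 677), with 535 to 830 bp between the quartiles and a range of 238 to 2258 bp. In the 3757 pairs the proximal peaks had a median of 621 bp (614 to 630) and the distal peaks of 587 bp (578 to 595). The proximal peak was wider in 2263 (60.2%, 58.7 to 61.8), the distal in 1476, and 18 were equal, with a median difference of 20 bp. In other shared regions the proximal peak was wider in 56.5%, with a median difference of 13 bp, and the whole proximal list was wider too (medians of 711 and 691 bp). Peak width can vary with depth, and its part in the difference was not tested.

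The stretch common to both peaks made up a median of 87.0% of a region, and the centres lay 28 bp apart (median). In 3707 pairs (98.7%) the overlap reached 0.5 of each peak, and in 298 (7.93%) the widths differed by more than 1.5 times. The largest differences were all toward the proximal end, at Mterf1b (1688 and 607 bp), Cdx2 (1741 and 761 bp) and Ncoa2 (1578 and 674 bp).

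The widest regions were at Zfp825 (2258 bp), Ccr1 (2116 bp) and Mpzl1 (2094 bp). The Mpzl1 region held 2 tRNA-Pro genes, and 86.8% of the 31-base words of the Zfp825 region were multi-copy. The narrowest were at Bdkrb2 (238 bp), BC048403 and Tbc1d2b (245 bp each). Regions called in 1 end only at the same distances had median widths of 497 bp (proximal) and 465 bp (distal). The single peaks of members, a nearer measure than their merged width, had medians of 621 bp (proximal) and 587 bp (distal). Merged shared promoter regions were wider than merged members, at 998 bp.

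**Figure D4:**
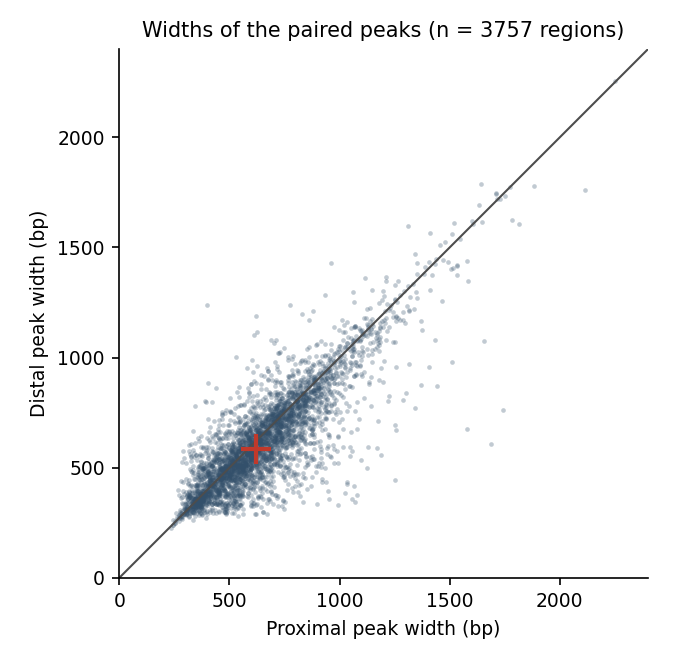
Width of the distal peak against the width of the proximal peak (bp) in the 3757 shared intergenic regions with 1 peak of each end; each point is a region, the line marks equal widths and the cross the medians, 621 and 587 bp. Points follow the line, with 60.2% on the side of a wider proximal peak.

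The sequence at the centre of the regions was marked by AP-1 words. TGAGTCA, searched on both strands, was present in the central 200 bp of 1107 members (29.2%, 27.8 to 30.7), compared with 3.76% (3.36 to 4.22) of 7574 windows of the same length 2 kb to either side. Shared intronic regions more than 3 kb from start sites had 33.4% (32.0 to 34.8), shared regions over 100 kb away 30.5% (28.5 to 32.6) and shared promoter regions 3.46%. TGAGACA, a word that differs from it by 1 base, was found in 3.83% of members and 5.93% of side windows. Matches reached 35.8 per 1000 regions in 20 bp at the centre, averaged over 200 bp, and 3.70 at the edges of a 1 kb window. Only 67 of the 1326 AP-1 matches (5.05%) lay in repeat-masked sequence.

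At the same intergenic distances, AP-1 words were present in 21.4% (18.96 to 24.2) of distal-only and 31.6% (28.96 to 34.4) of proximal-only regions. These intervals cover counting error only. With 1 list per end, a difference between the ends cannot be judged. Among members the share was 24.5% (21.4 to 27.9) at 3 to 10 kb, 30.7% (27.6 to 34.1) at 30 to 50 kb, 35.9% (32.1 to 39.9) at 50 to 75 kb and 33.9% (29.5 to 38.5) at 75 to 100 kb. By width, it was 27.0% in members of up to 535 bp, 36.1% at 536 to 668 bp, 33.7% at 669 to 830 bp and 20.1% (17.7 to 22.8) in wider ones.

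The RUNX, TEAD and SOX words did not show such a peak. RUNX (TGTGGTT) was present in 6.39% (5.65 to 7.21) of members and 5.24% (4.76 to 5.77) of side windows, and TEAD (GGAATGT) in 2.96% and 2.85%. The inverted SOX pair (ACAATNNNNATTGT) was found in 0 of 3787 members, 1 of 7574 side windows and 1 of all 32388 merged regions. An exact word this rare cannot show whether members hold paired SOX sites. The single SOX word (ACAATG) was present in 5.62% (4.93 to 6.404) of members and 11.8% (11.1 to 12.6) of side windows. Words of GATA factors (AGATAAG, 0.951% of members and 2.64% of side windows) and of homeobox factors (TAATTA, 3.86% and 5.55%) were also less frequent in members. The SOX, GATA and homeobox words are AT-rich, and the members had a median GC content of 50.5% against 44.5% in the side windows. The MEF2 word (CTATTTATA), also AT-rich, was present in 17 members (0.449%, 0.280 to 0.718) and 16 side windows (0.211%, 0.130 to 0.343). These counts are small and the intervals overlap. Words of CRE (TGACGTCA, 0.687% and 0.145%), ETS (CCGGAAGT, 0.449% and 0.132%) and SP/KLF (GGGGCGGGG, 1.56% and 0.317%) factors were more frequent in members than in side windows. The part of base composition in these shares was not tested. CTCF, a factor of chromatin boundaries, had its word in 33 members (0.871%, 0.621 to 1.22) and in 0.0264% of side windows, and 21 of the 33 were in members of up to 535 bp (2.21% of those members). The E-box CAGCTG was present in 568 members (13.9% to 16.2%) and in 8.70% of side windows. In 2316 members (61.2%) the central 200 bp held no AP-1, RUNX, SOX or TEAD word.

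**Figure D5:**
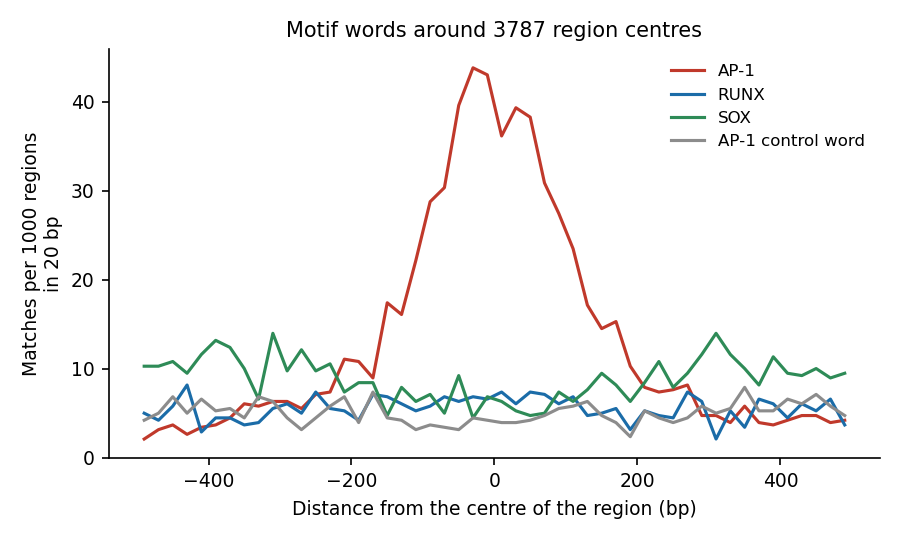
Matches of 4 motif words per 1000 regions in steps of 20 bp (y axis) by distance from the centre of the 3787 shared intergenic regions (bp, x axis), both strands together. AP-1 matches rise toward the centre from 3.70 at the edges, RUNX and the AP-1 control word TGAGACA stay low, and SOX matches are lower at the centre (6.15) than at the edges (9.98).

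CpG-rich members, with at least 55% G and C and an observed to expected CpG ratio of at least 0.6, numbered 164 (4.33%). They were 857.5 bp wide (median) and 46 of them (28.0%, 21.7 to 35.4) lay within 1 kb of a gene start in the RefSeq annotation, compared with 5.93% (5.21 to 6.75) of the other 3623 members. An AP-1 word was present in 3 of the 164 (1.83%) and in 30.5% of the others. Of the 164, 29 (17.7%) were multi-copy sequence, compared with 3.78% of all members, and 5 held a tRNA gene. In all, 645 members (17.0%) lay in a RefSeq gene body, 516 of them in a long noncoding RNA gene and 133 in a protein-coding gene, so that they were intergenic in the GENCODE release only. Within 1 kb of a RefSeq gene start lay 261 members (6.89%), of which 58 were at a protein-coding start and thus nearer than the 3 kb limit by that annotation.

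Some members matched enhancers tested in transgenic mouse embryos in the VISTA collection, as listed by RefSeq. Of 165 tested-positive elements lying in the same intergenic distance range, 35 (21.2%, 15.7 to 28.1) overlapped a member. The share was 9 of 43 elements (20.9%, 11.4 to 35.2) with limb activity and 26 of 122 (21.3%, 14.98 to 29.4) without it, and these intervals overlap widely. Regions in limb elements included those nearest to Sec61g (limb staining in 4 of 4 embryos), Hs3st5 (9 of 10), Hhat (8 of 13) and Reep3 (6 of 9). The lowest share of embryos was 4 of 10, for the element at Gm21897. The elements at Hs3st5, Hhat and Reep3 were also active in forebrain, and the one at Sec61g in branchial arch and eye. The upstream Fos region and the Bmp7 region overlapped elements active in heart. A region nearest to Col1a1, the main bone collagen, overlapped an element active in neural tube, hindbrain, forebrain and branchial arch.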

How the data were processed

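Open chromatin was profiled by ATAC-seq in cells from the cartilaginous tissue, perichondrium included, of both ends of the E15.5 femur. The authors aligned reads to mm10 and called peaks (Bowtie2 2.2.8 and MACS2 2.1.1 in the submitters' processing notes). Peaks found in both of 2 replicates were retained by the irreproducible discovery rate, with a limit of 0.05. The deposited lists give 1 set of positions per end on 19 autosomes, with no score, count or depth. The paper reports an average number of reads per sample, but depth was not compared between the ends here. Starts were read as counted from 0 and are given from 1.

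Peaks were merged and annotated with GENCODE release 21 and RefSeq for GRCm38 in Python 3.11.15 with NumPy 2.4.6 and SciPy 1.17.1. Exact motif words were searched on both strands. Multi-copy words were 31-base words found more than once in the assembled chromosomes. Eligible bases were known bases outside gene bodies within the distance limits. Shares have Wilson intervals, medians intervals from order statistics and densities exact Poisson intervals, all at 95%. No test was run, since each end has 1 list. Functions were tested on simulated data.

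The members and lists were chosen with earlier results of these data known. Genes named were the 10 with most regions (ties by regions per 100 kb), list genes with at least 3 regions, and extremes of width and distance. Isg20 with Acan, the tRNA and 4.5S loci, list genes with fewer regions, other genes with 5 regions, Kcna5 and the enhancer examples were named after their values were seen, as were the windows with RNA genes in capitals.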

Additional observations from a re-analysis of the deposited data

How the results depend on the processing

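The settings tried were 16, of which 3, leaving out regions with a tRNA gene, multi-copy regions or regions at a RefSeq gene, were chosen after seeing the data. Keeping in each list only the peaks no narrower than its median width left 1010 regions at 884 genes, 1.82 per Mb, with a median width of 922 bp, a shared start site peak at 58.5% of nearest genes and an AP-1 word in 24.1%. With only the 5′ end of each gene as a start site, 69.5% of regions lay upstream, beside 70.04% of eligible bases. With the start sites of all annotated genes, 56.4% did, beside 55.5% of eligible bases, and density was 5.21 per Mb. With gene bodies of protein-coding genes only, density was 7.49 per Mb, median width 684 bp and the AP-1 share 27.7%. With an upper limit of 50 kb the AP-1 share was 27.1%. Searching whole regions gave AP-1 in 45.5% (side windows 12.2%), and any middle base (TGANTCA) 33.7% (side windows 6.22%). Counting only peaks that cover a start site gave 62.4% of nearest genes. Density was 6.58 per Mb without multi-copy regions and 5.58 without those at a RefSeq gene. The most regions at 1 gene, 9 as reported, were 5 with wide peaks only, 7 without multi-copy regions, 7 without those at a RefSeq gene, 7 with an upper limit of 50 kb and 10 with gene bodies of protein-coding genes only.

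No paired analysis was possible because each list combines the replicates of its end, so that leaving out a replicate was not possible. Multi-copy sequence and the assembly gap limit what is known of the 4.5S array.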
